A study of Mus musculus with 4 samples.

Results

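The 55 genes described here are the kinesin motors and the tubulins that were detected in pachytene spermatocytes of the mouse, cells of the testis that are pairing and recombining their chromosomes in meiosis. They were chosen by gene name from the GENCODE M21 annotation: protein-coding Kif, Kifc, Tuba, Tubb, Tubd, Tube and Tubg genes other than Kif17, with an expected count of at least 10 in at least 2 libraries. Of 61 genes with such names, 55 met the count minimum, out of 55364 gene identifiers in all. Kif12, Kif28, Tubb1, Tubb2b, Tubb4a and Tubg2 did not meet it. The 55 are 39 kinesins, 15 tubulins and Kif1bp, a kinesin-binding protein that the name pattern also took in. All 55 were tested, and Kif26a met the minimum through the knock-in libraries alone.

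The comparison was between wild-type mice (WT) and mice carrying a Ddx4 knock-in on both alleles (KK), with 2 libraries of each. Ddx4 encodes a germline RNA helicase that is a core protein of germ granules, and the title of the series asks how germ granules formed by phase separation act on RNA homeostasis. Cells of both genotypes were obtained from digested testes by centrifugal elutriation, which sorts cells by size, so they are an enriched fraction and not a pure one. The sources used here do not give strain, age or the sequence inserted at Ddx4. Whether the 2 libraries of each genotype are from different mice is not stated. The p-values therefore set the genotype difference only against the spread between these libraries, and that spread may be technical.

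Microtubules are hollow polymers of alpha- and beta-tubulin, nucleated by gamma-tubulin, and each animal carries several alpha and beta genes whose products differ mainly at their acidic C-terminal tails. Kinesins are ATP-driven motors that walk along microtubules with cargo, slide them in the spindle, or shorten them from their ends. In the male germ line they serve the meiotic spindle, and later the manchette, which shapes the sperm head, and the flagellum.

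The tails are shown first, because the comparison turns on which tubulin genes contribute the transcripts and the tails are where enzymes add and remove glutamate and tyrosine. Each line gives the last 25 codons before the stop codon, 5′ to 3′ on the coding strand, with the glutamate codons GAA and GAG in capitals. The sequences and the GRCm38 coordinates come from the GENCODE M21 transcripts.
Tuba3a, chr6:125278361-125278435, minus strand: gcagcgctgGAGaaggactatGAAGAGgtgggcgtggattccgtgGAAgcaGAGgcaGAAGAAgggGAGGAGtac
Tuba4a, chr1:75215625-75215699, minus strand: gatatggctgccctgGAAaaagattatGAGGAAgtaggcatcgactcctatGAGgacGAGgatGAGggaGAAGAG
Tuba8, chr6:121226002-121226076, plus strand: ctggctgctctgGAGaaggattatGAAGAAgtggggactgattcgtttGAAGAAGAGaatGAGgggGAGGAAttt
Tubb4b, chr2:25222311-25222385, minus strand: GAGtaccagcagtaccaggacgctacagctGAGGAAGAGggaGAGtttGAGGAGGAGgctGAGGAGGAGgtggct
Tubb2a, chr13:34074471-34074545, minus strand: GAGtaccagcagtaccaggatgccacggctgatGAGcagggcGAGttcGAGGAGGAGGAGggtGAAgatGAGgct
Tubb3, chr8:123421605-123421679, plus strand: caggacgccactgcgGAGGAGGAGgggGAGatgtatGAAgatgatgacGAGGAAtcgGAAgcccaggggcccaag
Tubb5, chr17:35834985-35835059, minus strand: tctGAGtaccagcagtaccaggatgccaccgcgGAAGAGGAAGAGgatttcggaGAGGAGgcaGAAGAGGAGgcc
The tail of Tuba3b (chr6:145621310-145621384, plus strand) is identical to that of Tuba3a. The tail of Tuba3a ends in the tyrosine codon tac, the residue that tubulin tyrosine ligase and the vasohibins add and remove. That of Tuba4a ends in a glutamate codon, and that of Tuba8 in the phenylalanine codon ttt. Glutamate codons number 9 of 25 in Tuba3a and Tuba8, 8 in Tuba4a, 11 in Tubb4b, 10 in Tubb5, 9 in Tubb2a and 8 in Tubb3.

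The libraries held between 17970207 and 19438570 expected counts each. Ddx4 itself, the targeted gene, stood at 265 and 273 TPM, a level per transcript length scaled to the same total in each library, in WT and at 54.4 and 52.5 TPM in KK. Markers of pachytene spermatocytes summed to between 8162 and 8739 CPM in the libraries, where CPM are counts scaled for depth. Ldhc made up most of each sum (5772 CPM in WT and 5730 CPM in KK), while Hist1h1t was scarce (2.9 and 2.8 CPM). Of the 9 markers tested 4 fell and 1 rose. Those that fell were Sycp1 and Sycp3 of the synaptonemal complex, Piwil1 (942 to 629 CPM) and Mybl1 (118 to 75.5 CPM), and Tex101 rose from 181 to 1083 CPM. The summed level of 8 Leydig cell markers was 222 and 236 CPM in WT and 694 and 705 CPM in KK, and 7 of the 8 rose. Sertoli cell markers (8 genes) summed to 33.4 and 35.8 against 23.3 and 24.1 CPM, and 4 of 6 tested fell. Of 9 tested spermatogonial markers 6 rose and 1 fell, with sums of 120 and 123 against 119 and 129 CPM. Most of each sum was the faller, Id4 (93.4 to 70.1 CPM), so the sums do not show the rises of the other 6. The most abundant of those 6 were Uchl1 (9.98 to 17.2 CPM) and Kit (5.43 to 9.48 CPM). Spermatid markers (8 genes) summed to 4151 and 4178 against 3493 and 3399 CPM, with 3 higher and 4 lower. Macrophage markers (5 genes) summed to 1.65 and 2.19 against 4.03 and 5.06 CPM, and peritubular and endothelial markers (5 genes) to 3.01 and 4.66 against 3.93 and 3.92 CPM. None of these markers was at 0 in all 4 libraries. These marker levels moved with genotype beside the results below, and their part in those results was not tested. In bulk RNA, fewer cells of a type and less RNA per cell cannot be told apart.

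Genes were compared with edgeR's quasi-likelihood test, with Benjamini-Hochberg adjustment over all 16571 genes tested. A gene is called higher or lower in KK, or said to rise or fall, when its adjusted p is under 0.05. A very large share of all genes passed, 7237 or 43.7%, of which 3648 (22.0% of those tested) were higher and 3589 (21.7%) lower. Among the 55 kinesin and tubulin genes 17 were higher (30.9%), 9 lower (16.4%) and 29 did not pass, a total of 47.3%, close to the background. Kif26a, which met the count minimum only through KK, had to differ, and without it 16 of 54 were higher. Their median log2 fold change was 0.05, against 0.00 over all genes tested. With scaling by library size alone, 23 were higher and 5 lower, and 64.2% of all calls were higher, against 50.4% with the scaling used here. The 22 least abundant members, with a mean under 10 TPM, held 9 risers and 1 faller, or 8 risers and 1 faller among 21 (38.1% and 4.76%) without Kif26a. At that level 22.4% of all tested genes were higher and 10.6% lower.

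**Figure D1:**
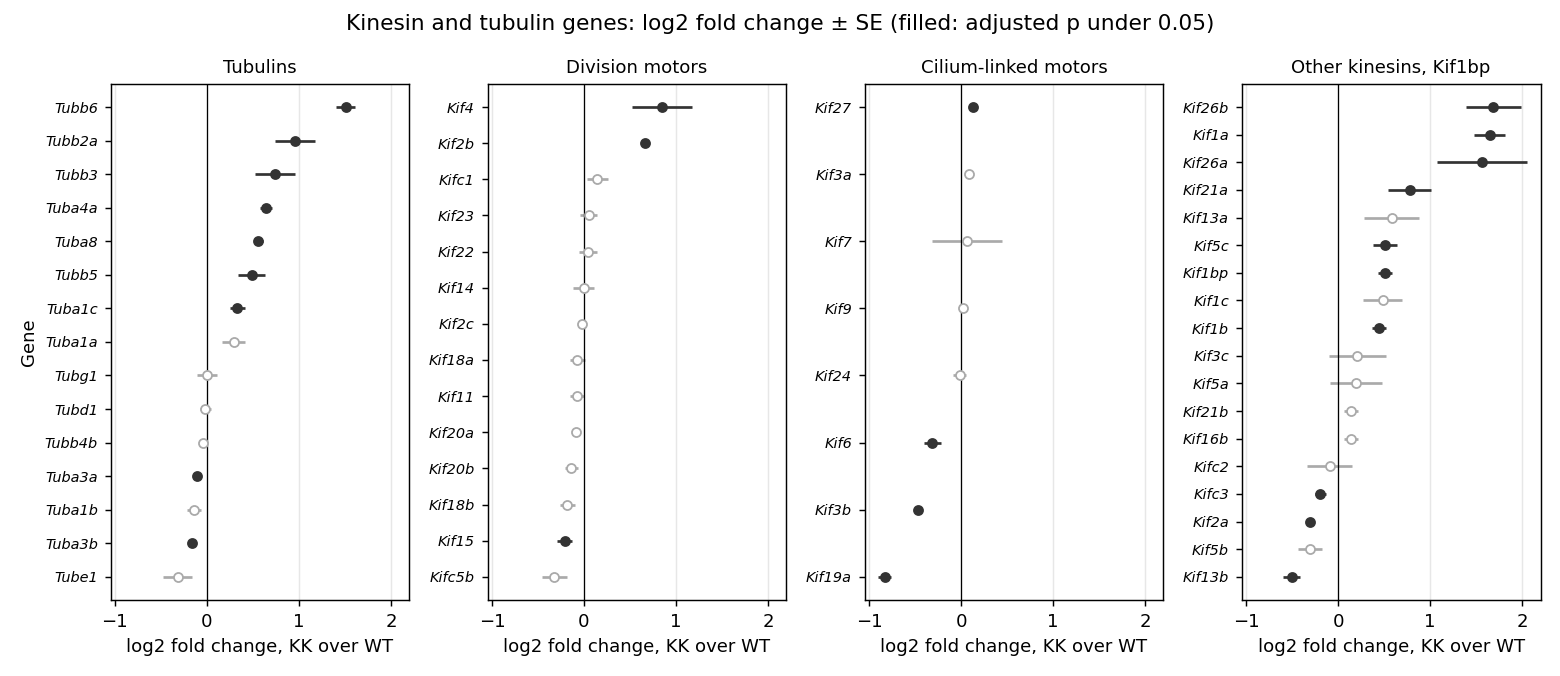
Log2 fold change of each of the 55 genes in KK over WT with its standard error (edgeR, n = 2 libraries per genotype), with filled points for an adjusted p under 0.05. The largest rises are those of Kif26b, Kif1a and Tubb6 (Kif26a, also to the right, was bound to differ by its choice), and the largest fall is that of Kif19a.

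Alpha-tubulin transcripts came almost wholly from the testis genes Tuba3a and Tuba3b. Tuba3a (chromosome 6, 125278274 to 125286042) stood at 3043 and 3088 TPM in WT and 2806 and 2853 TPM in KK. Tuba3b, on the same chromosome (145615757 to 145621479), stood at 2811 and 2845 TPM in WT and 2505 and 2545 TPM in KK. Both KK libraries were below both WT libraries for each gene, by a small margin. The falls were 1.08-fold for Tuba3a (log2 fold change -0.11, SE 0.03, adjusted p = 0.00978, edgeR) and 1.12-fold for Tuba3b (-0.16, SE 0.03, adjusted p = 0.0004). With scaling by library size alone neither passed, with log2 fold changes of -0.03 (adjusted p = 0.543) and -0.08 (adjusted p = 0.0764). Their coding sequences are 97.0% identical, and 33.6% of the 50-base words of Tuba3a also occur in other genes, mostly in Tuba3b, so the split between them is uncertain. Together they made 96.6% of the summed TPM of the 7 alpha-tubulin genes in each WT library, and 95.0% and 94.9% in the KK libraries.

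The other alpha-tubulins together stood at 207 and 211 TPM in WT and 277 and 288 TPM in KK. Tuba4a, the alpha-tubulin whose tail carries no terminal tyrosine codon, stood at 76.2 and 79.7 TPM in WT and 120 and 124 TPM in KK. It rose 1.56-fold, from 47.0 ± 1.07 to 73.5 ± 0.0477 CPM (SD, n = 2), with a log2 fold change of 0.64 (SE 0.07, edgeR adjusted p = 4.09e-09). Reads of Stk16, on the opposite strand, cannot be told apart from those of Tuba4a over 1379 of its 3701 exon bases. Stk16 stood at 119 and 124 TPM in WT and at 115 and 121 TPM in KK, where its libraries overlapped.

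Tuba8, which ends in a phenylalanine codon, stood at 49.3 and 50.9 TPM in WT and 72.8 and 74.3 TPM in KK. It rose 1.47-fold, from 76.4 ± 1.64 to 112 ± 1.35 CPM (SD, n = 2), with a log2 fold change of 0.56 (SE 0.05, edgeR adjusted p = 2.54e-10). The sequence of Tuba8 is nearly unshared, with 0.18% of its 50-base words in other genes.

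The somatic Tuba1 genes, which build the microtubules of most dividing cells, did not move together. Tuba1c stood at 31.3 and 29.4 TPM in WT and 37.5 and 38.9 TPM in KK, and rose (log2 fold change 0.33, SE 0.08, edgeR adjusted p = 0.00109). Tuba1b stood at 41.4 and 40.9 against 35.4 and 38.3 TPM (adjusted p = 0.154, edgeR), and Tuba1a at 8.3 and 10.2 against 11 and 11.7 TPM (adjusted p = 0.0614). These 3 share 61.0% to 73.8% of their 50-base words with other genes, so their values are uncertain.

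**Figure D2:**
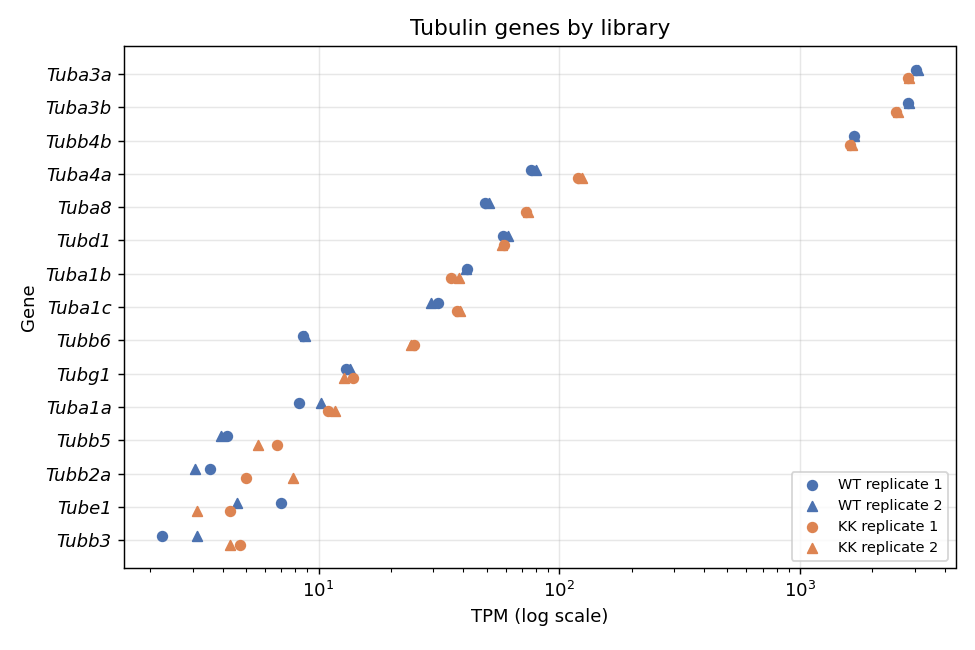
TPM of the 15 tubulin genes in each of the 4 libraries, on a log axis, with blue for WT, orange for KK and the marker shape for the replicate. Tuba3a, Tuba3b and Tubb4b lie far to the right of the other genes in every library, and the KK points of Tuba4a, Tuba8 and Tubb6 lie to the right of both WT points.

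Beta-tubulin rested on a single gene, Tubb4b, the isotype known from axonemes. It stood at 1685 and 1677 TPM in WT and 1610 and 1648 TPM in KK, a difference that did not pass (log2 fold change -0.04, SE 0.03, edgeR adjusted p = 0.334). It made 98.9% of the summed TPM of 8 beta-tubulin genes in each WT library and 97.5% in each KK library. Of its 50-base words 50.9% also occur elsewhere, mainly in annotated pseudogenes.

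The remaining beta-tubulins together were at 18.5 and 18.9 TPM in WT and 41.6 and 42.1 TPM in KK. Tubb6, a broadly expressed isotype on chromosome 18, stood at 8.6 and 8.77 TPM in WT and 25.0 and 24.3 TPM in KK. Its level went from 9.81 ± 0.135 to 27.9 ± 0.604 CPM (SD, n = 2), a 2.84-fold rise (log2 fold change 1.51, SE 0.11, edgeR adjusted p = 2.18e-12). It shares no 50-base word with another gene.

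Tubb2a, Tubb3 and Tubb5 rose from low levels. Tubb2a stood at 3.53 and 3.06 TPM in WT and 5.01 and 7.84 TPM in KK, with 121 WT and 248 KK counts and an adjusted p of 0.000761 (edgeR). Tubb3, an isotype best known from neurons, stood at 2.24 and 3.13 against 4.7 and 4.3 TPM, with 119 and 211 counts (adjusted p = 0.00638). Tubb5, the main isotype of many dividing cells, stood at 4.16 and 3.92 against 6.71 and 5.59 TPM (adjusted p = 0.0066). For each of the 3 both KK libraries were above both WT libraries. The count ratios of KK over WT, scaled for depth, were 1.93 (95% exact interval 1.55 to 2.42) for Tubb2a and 1.67 (1.33 to 2.11) for Tubb3, which cover counting error only. The call of Tubb2a ended without KK replicate 2 (adjusted p = 0.0565) and that of Tubb3 without WT replicate 1 (adjusted p = 0.0896). With limma on log2(TPM + 1) none of the 3 passed, with adjusted p of 0.0714 for Tubb2a, 0.0822 for Tubb3 and 0.0841 for Tubb5. Of the 50-base words of Tubb2a 49.6% occur in other genes, mainly in Tubb2b and pseudogenes.

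Tubulins outside the alpha-beta dimer did not pass. Tubg1, gamma-tubulin of the nucleating ring, stood at 13.04 and 13.6 TPM in WT and 13.9 and 12.8 TPM in KK, where the genotypes overlapped. Tubd1, the delta-tubulin of centrioles, stood at 58.6 and 61.0 against 59.0 and 57.7 TPM (adjusted p = 0.849, edgeR). Tube1, epsilon-tubulin, stood at 6.99 and 4.57 against 4.27 and 3.13 TPM (adjusted p = 0.111).

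Kinesins were less abundant than the leading tubulins and covered a wide range, from 0.18 to 261 TPM in mean level. Of 39, 9 were higher, 7 lower and 23 did not pass, so 41% passed, against 43.7% of all genes tested. Without Kif26a, which had to differ by its choice, 8 of 38 were higher and 39.5% passed. The 6 most abundant were Kif9, Kif2b, Kif2a, Kif2c, Kif20a and Kif3b. Kif9, a motor of the sperm flagellum, stood at 261 and 257 TPM in WT and 260 and 265 TPM in KK and did not pass (adjusted p = 0.654, edgeR).

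**Figure D3:**
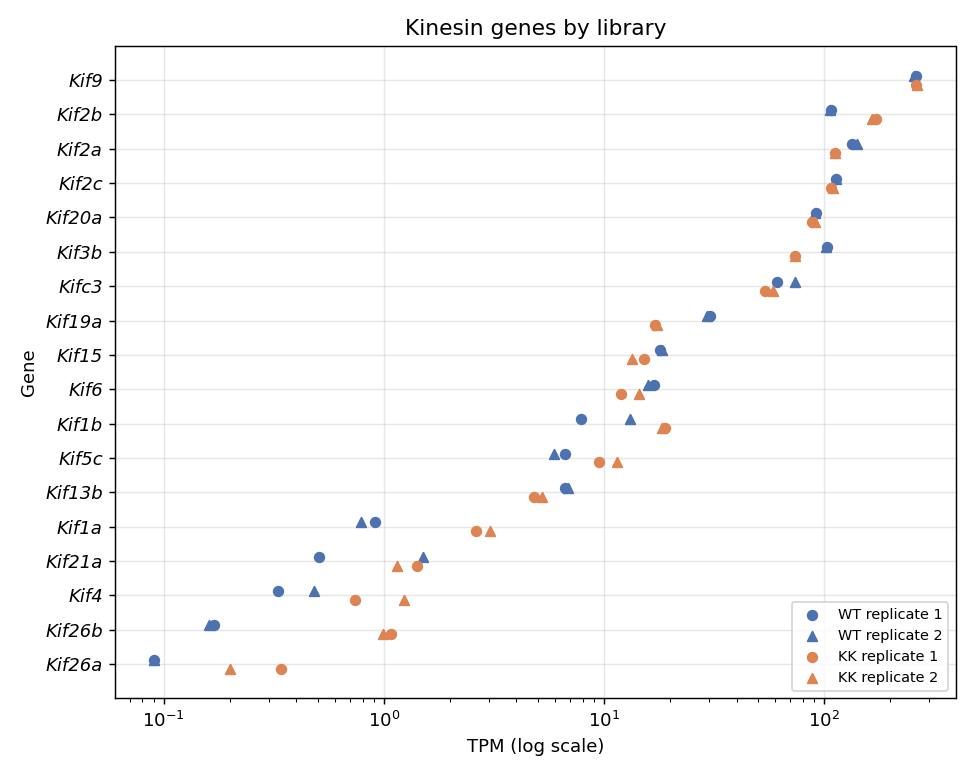
TPM of selected kinesins in each of the 4 libraries, on a log axis, with blue for WT and orange for KK. Shown are the kinesins with the largest rises and falls past the test, the most abundant kinesins and the X-linked Kif4. Kif9 is the most abundant in every library. The KK points of Kif2b lie to the right of its WT points, while those of Kif3b and Kif19a lie to the left.

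The 14 division motors, which build and move the meiotic and mitotic spindle, mostly did not pass the test. Of these 2 rose, 1 fell and 11 did not pass, and the median log2 fold change was -0.05. The share that passed was 21.4%, against 43.7% of all genes tested. The 11 included Kif11, the bipolar spindle motor (adjusted p = 0.451, edgeR), Kif23 of the central spindle (adjusted p = 0.7), Kif18a, which limits chromosome oscillation (adjusted p = 0.493), and Kif22, a chromosome arm motor (adjusted p = 0.734). Kif20a, a motor of cytokinesis, stood at 92.2 and 90.6 TPM in WT and 88.4 and 91.0 TPM in KK (adjusted p = 0.0813). Kif2c, the centromeric microtubule depolymerase, stood at 113 and 113 TPM in WT and 107 and 110 TPM in KK (adjusted p = 0.734). The spindle motors Kifc1 (adjusted p = 0.303) and Kifc5b (adjusted p = 0.0547) are 98.4% identical in coding sequence, so their values are uncertain.

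Kif2b, a second microtubule depolymerase of the kinesin-13 family, was the exception among the abundant division motors. It stood at 108 and 106 TPM in WT and at 171 and 165 TPM in KK. The level rose 1.58-fold, from 161 ± 1.99 to 254 ± 7.44 CPM (SD, n = 2), with a log2 fold change of 0.66 (SE 0.04, edgeR adjusted p = 9.93e-14). Kif2a, of the same family, fell from 134 and 141 TPM in WT to 112 and 112 TPM in KK (log2 fold change -0.30, SE 0.04, adjusted p = 2.1e-07). Over 1229 of its 6393 exon bases Kif2a cannot be told apart from Dimt1, on the other strand, which stood at 10.5 and 12.8 TPM in WT and 10.7 and 10.1 TPM in KK. Within the kinesin-13 family, Kif2b was therefore called higher and Kif2a lower, and Kif2c and Kif24 did not pass.

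Kif4, a chromosome-bound motor and the only X-linked member, stood at 0.33 and 0.48 TPM in WT and 0.74 and 1.24 TPM in KK. It rose on 54 WT and 103 KK counts, a scaled ratio of 1.80 (1.28 to 2.55), with a log2 fold change of 0.85 (SE 0.32, edgeR adjusted p = 0.0334). The call ended without WT replicate 1 (adjusted p = 0.245), without KK replicate 1 (0.103) and without KK replicate 2 (0.0571). Kif15, a spindle motor, stood at 18.03 and 18.4 against 15.2 and 13.5 TPM and fell (log2 fold change -0.21, SE 0.08, edgeR adjusted p = 0.0324). Its call ended without WT replicate 1 (adjusted p = 0.136) or KK replicate 1 (adjusted p = 0.156), and with scaling by library size alone (adjusted p = 0.204).

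Most division motors had a short element in common in their promoters. The cell cycle genes homology region, TTTGAA, through which many genes of mitosis are repressed outside G2 and M phase, was searched on both strands of 300-base windows in the RefSeq GRCm38.p6 promoter table, from 250 bases before the start to 50 after it. Of 13 division motors with a window, 11 held it, against 5 of 32 other members with a window and 17.9% of all 32851 windows. The exceptions were Kif18a and Kif2b, and Kif20a had no window. The lines below show 30 bases around the match nearest the start for 6 of the 11, 5′ to 3′ on the gene's strand, with TTTGAA or its reverse complement TTCAAA in capitals.
Kif11, chr19:37376351-37376380, plus strand: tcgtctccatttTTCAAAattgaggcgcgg
Kif15, chr9:122951050-122951079, plus strand: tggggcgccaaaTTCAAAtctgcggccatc
Kif22, chr7:127042420-127042449, minus strand: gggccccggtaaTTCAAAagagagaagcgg
Kif23, chr9:61946780-61946809, minus strand: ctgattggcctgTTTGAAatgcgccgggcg
Kifc1, chr17:33890615-33890644, minus strand: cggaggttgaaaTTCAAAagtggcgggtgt
Kifc5b, chr17:26917108-26917137, plus strand: cggaggttgaaaTTCAAAagtgactggtgt
Other motifs were searched in the same way. AACNGTC, a MYB motif, was in 2 of 45 member genes with a window, which is 4.1% of member windows, and in 8.0% of all windows. CCAAT was in 25 of 45 genes, with 53.1% of member windows and 37.4% of all windows. The cAMP response element TGACGTCA was in 3 of 45 genes, with 6.1% of member windows and 1.8% of all windows. A match is a description and not a site.

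Kif2b has a single exon (chromosome 11, 91575315 to 91577558, minus strand). Kif18a also lacked TTTGAA and did not pass, and CCAAT was in 25 of 45 member genes with a window. Whether these features bear on the level of Kif2b was not tested. The 250 bases before the start of Kif2b hold a CCAAT box, in capitals, and no TTTGAA.
Kif2b, chr11:91577556-91577805, minus strand: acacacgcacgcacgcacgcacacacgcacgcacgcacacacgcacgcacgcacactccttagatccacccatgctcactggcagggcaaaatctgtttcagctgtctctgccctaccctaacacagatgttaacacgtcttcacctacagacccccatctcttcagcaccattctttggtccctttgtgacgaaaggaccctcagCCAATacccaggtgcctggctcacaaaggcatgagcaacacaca

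Transport motors, which carry vesicles, organelles and RNA along microtubules, had risers and fallers at about the background rate. Of 16, 4 rose (25%), 3 fell (18.8%) and 9 did not pass, against 22.0% and 21.7% of all genes tested. Kif3b is a subunit of kinesin-2, the motor of intraflagellar transport that builds cilia and flagella. It stood at 103 and 102 TPM in WT and 73.7 and 73.7 TPM in KK. The fall was 1.39-fold, from 427 ± 1.53 to 308 ± 0.218 CPM (SD, n = 2), with a log2 fold change of -0.47 (SE 0.04, edgeR adjusted p = 1.01e-11). Its partner subunit Kif3a stood at 82.5 and 81.7 TPM in WT and 88.9 and 82.6 TPM in KK and did not pass (adjusted p = 0.0979). The third subunit, Kifap3, rose slightly, from 127 ± 3.91 to 140 ± 2.21 CPM (log2 fold change 0.14, SE 0.04, adjusted p = 0.0103, edgeR, n = 2). The Kifap3 call ended without WT replicate 1 (adjusted p = 0.219) or KK replicate 1 (adjusted p = 0.0857).

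Kif1a, a kinesin-3 motor of neuronal vesicles, stood at 0.91 and 0.79 TPM in WT and 2.61 and 3.03 TPM in KK. Its rise was 3.13-fold, from 3.67 ± 0.348 to 11.5 ± 0.905 CPM (SD, n = 2), on 133 WT and 441 KK counts (log2 fold change 1.65, SE 0.17, edgeR adjusted p = 3.46e-09). On the log2(TPM + 1) scale, which compresses low values, limma gave 1.04. Kif1b, a relative that moves mitochondria and vesicles, rose from 42.0 ± 0.311 to 57.1 ± 0.283 CPM (log2 fold change 0.44, SE 0.08, adjusted p = 1.87e-05, edgeR, n = 2). In TPM Kif1b was uneven in WT (7.84 and 13.1) and higher in KK (18.9 and 18.4), and with limma it did not pass (adjusted p up to 0.061). Kif5c, a kinesin-1 heavy chain, stood at 6.62 and 5.9 TPM in WT and 9.52 and 11.5 TPM in KK, and rose (log2 fold change 0.51, SE 0.13, edgeR adjusted p = 0.00193). The other kinesin-1 chains, Kif5a (adjusted p = 0.613) and Kif5b (adjusted p = 0.0605), did not pass.

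Kif21a, a kinesin-4 motor that dampens microtubule growth, rose on 100 WT and 181 KK counts (scaled ratio 1.71, 1.33 to 2.20, edgeR adjusted p = 0.00876). Its TPM overlapped between genotypes, at 0.51 and 1.51 in WT and 1.42 and 1.15 in KK. The call ended without WT replicate 1 (adjusted p = 0.11) or KK replicate 2 (adjusted p = 0.0574), and with an offset for effective length (adjusted p = 0.551). Kif13b, a kinesin-3 motor, stood at 6.67 and 6.86 TPM in WT and 4.81 and 5.22 TPM in KK and fell (log2 fold change -0.51, SE 0.09, edgeR adjusted p = 3.94e-05), but not with limma (adjusted p up to 0.126). Kifc3, a minus-end motor, stood at 60.9 and 73.6 against 53.9 and 58.7 TPM and fell (log2 fold change -0.19, SE 0.06, edgeR adjusted p = 0.0125). The Kifc3 call ended without WT replicate 2 (adjusted p = 0.168) or KK replicate 1 (adjusted p = 0.244), and with library size alone (adjusted p = 0.161). The transport motors that did not pass were otherwise Kif13a, Kif16b, Kif1c, Kif21b, Kif3c and Kifc2.

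Motors linked to cilia and flagella, 8 with Kif3a and Kif3b counted again, had 1 riser (12.5%), 3 fallers (37.5%) and 4 that did not pass. Of all genes tested 22.0% were higher and 21.7% lower, and at a mean of 10 to under 100 TPM 33% were lower. Kif19a, a kinesin-8 that shortens microtubules at the tips of cilia, fell the most of all 55 genes. It stood at 30.1 and 29.2 TPM in WT and 16.97 and 17.5 TPM in KK. The level dropped 1.78-fold, from 71.3 ± 0.642 to 40.1 ± 1.19 CPM (SD, n = 2), with a log2 fold change of -0.83 (SE 0.07, edgeR adjusted p = 1.08e-10). Kif6, a kinesin-9 like Kif9, stood at 16.8 and 15.9 TPM in WT and 11.97 and 14.4 TPM in KK and fell (log2 fold change -0.31, SE 0.09, edgeR adjusted p = 0.00538). Its call ended without WT replicate 1 (adjusted p = 0.0798) and with an offset for effective length (adjusted p = 0.0643). Kif27, a relative of the Hedgehog pathway kinesin Kif7, rose by 0.13 on the log2 scale (SE 0.04, edgeR adjusted p = 0.00621). In TPM it did not separate, with 78.4 and 79.0 in WT and 79.0 and 76.8 in KK, and its direction turned with an offset for effective length (-0.03). Leaving out WT replicate 1 or KK replicate 1 ended the call (adjusted p = 0.172 and 0.0553). Kif7 and Kif24 did not pass, with adjusted p of 0.912 and 0.89 (edgeR).

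The kinesin-11 pair Kif26a and Kif26b, divergent kinesins of cell signalling, were among the scarcest genes of the set. Kif26b stood at 0.17 and 0.16 TPM in WT and 1.08 and 0.99 TPM in KK, on 43 and 147 counts (scaled ratio 3.23, 2.28 to 4.64). Its log2 fold change was 1.69 (SE 0.30, edgeR adjusted p = 3.67e-05), and over the alternatives it ran from 0.80 with limma on log2(TPM + 1) to 2.61 with an offset for effective length. Kif26a had 8 and 9 counts in WT and 35 and 19 in KK (scaled ratio 3.0). Since these KK counts alone brought Kif26a into the set, its values are a description, with no test. Kif1bp, which binds kinesins and keeps several of them off microtubules, stood at 23.1 and 22.9 TPM in WT and 32.8 and 31.2 TPM in KK, and rose (log2 fold change 0.51, SE 0.08, edgeR adjusted p = 4.18e-06).

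Isoforms were described without a test, because 2 libraries per genotype leave the assignment of reads between isoforms uncertain. Among the 55 genes, 117 isoforms reached 10 counts in 2 or more libraries, and the leading isoform held a median of 79.2% of its gene's transcripts. Kif21b, a kinesin-4 motor that pauses microtubule growth, differed between genotypes in its isoforms, while its gene level did not pass. The gene stood at 6.84 and 6.27 TPM in WT and 6.9 and 8.01 TPM in KK (adjusted p = 0.161, edgeR). The coding isoform Kif21b-201 held 78.9% and 72.4% of its transcripts in WT and 47.5% and 44.6% in KK. Kif21b-204, annotated as a target of nonsense-mediated decay, held 18.95% and 26.2% in WT and 50.5% and 46.2% in KK. The genotypes did not overlap for either isoform. This isoform and 14 others in 11 genes were singled out after their values were seen, for a difference of at least 10 points without overlap in genes with at least 100 counts in every library. They were 15 of 95 isoforms of such kinesin and tubulin genes (15.8%), and 8.49% of all 25406 isoforms of such genes met the same rule. Having been chosen this way, they are a description.

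**Figure D4:**
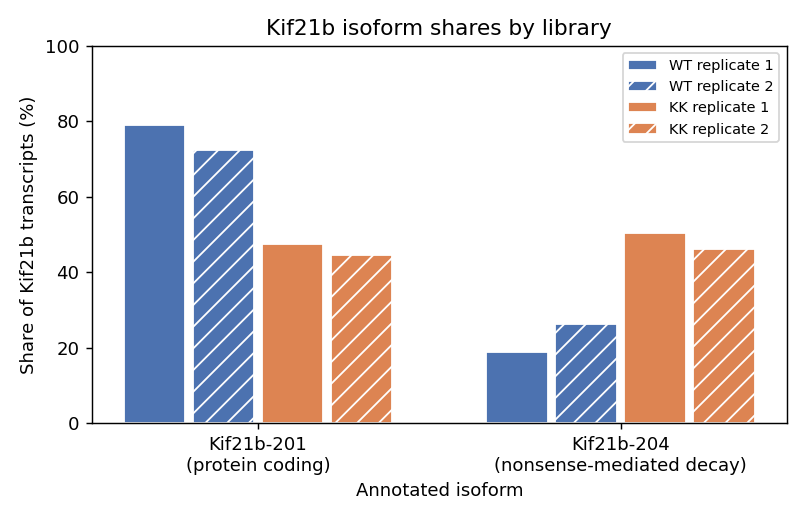
Percent of Kif21b transcripts assigned to the isoforms Kif21b-201 and Kif21b-204 in each of the 4 libraries, from the deposited isoform shares. Kif21b-201 lies above 70% in both WT libraries and below 50% in both KK libraries.

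The isoforms share 34 exons, and Kif21b-204 has 36 where Kif21b-201 has 35, so few reads tell them apart. Their first exons differ in where they start, and exon 35 of Kif21b-204 (180 bases) is absent from Kif21b-201. Its first 100 bases are shown because they hold the stop codon of Kif21b-204, in capitals.
Kif21b-204 exon 35, chr1:136173472-136173571, plus strand: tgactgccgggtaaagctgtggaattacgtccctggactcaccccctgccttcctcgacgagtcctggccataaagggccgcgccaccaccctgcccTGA
Among the others, Kif3a-208 held 21.1% and 27.1% of Kif3a transcripts in WT and 35.3% and 39.5% in KK. Kif1b-203 held 39.4% and 25.8% of Kif1b transcripts in WT and 15.1% and 12.2% in KK. Kifc3-212 held 31.5% and 26.7% in WT and 39.5% and 43.4% in KK.

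The wider microtubule machinery, a list of 120 genes of which 116 were tested, had 32 risers, 33 fallers and 51 that did not pass, with a median log2 fold change of -0.01. These are 27.6% and 28.4% of the list, against 22.0% and 21.7% of all genes tested. Cargo adaptors and light chains, which join kinesin to its load, had 2 risers (20.0%) and 6 fallers (60.0%) among 10. Klc2, a kinesin-1 light chain, fell from 180 ± 0.151 to 144 ± 3.16 CPM (SD, n = 2, log2 fold change -0.32, edgeR adjusted p = 1.71e-07). The scaffold Kidins220 fell by 0.37 on the log2 scale (adjusted p = 0.000308, edgeR).

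Cytoplasmic dynein, the motor that runs the opposite way, had 5 risers (22.7%) and 6 fallers (27.3%) among 22 genes. The shares over all genes tested were 22.0% and 21.7%. The heavy chain Dync1h1 fell from 824 ± 34.0 to 633 ± 26.5 CPM (SD, n = 2, log2 fold change -0.38, edgeR adjusted p = 2.2e-09), and the light intermediate chain Dync1li2 from 225 ± 0.397 to 161 ± 9.52 CPM (log2 fold change -0.48, adjusted p = 1.59e-10). The dynein light chain Dynll2 rose from 39.6 ± 1.93 to 57.5 ± 6.55 CPM (log2 fold change 0.54, adjusted p = 5.11e-06, edgeR, n = 2). The gamma-tubulin ring complex had no riser and 2 fallers (22.2%) among 9 genes, Cdk5rap2 (log2 fold change -0.18) and Tubgcp5 (-0.27). The Tubgcp5 call ended without WT replicate 2 (adjusted p = 0.579), KK replicate 1 (0.078) or KK replicate 2 (0.0907). Tubulin folding factors had 4 risers (30.8%) and 1 faller (7.69%) among 13. The faller, Tbcel, went from 101 ± 1.89 to 71.96 ± 3.04 CPM (log2 fold change -0.49, edgeR adjusted p = 9.42e-09, n = 2).

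Plus-end and stabilizing proteins had 6 risers (23.1%) and 11 fallers (42.3%) among 26 tested genes, against 22.0% and 21.7% of all genes tested. At a mean of 10 to under 100 TPM 33% of all tested genes were lower. Clip1, a tracker of growing plus ends, rose from 63.9 ± 2.51 to 115 ± 7.84 CPM (SD, n = 2, log2 fold change 0.85, edgeR adjusted p = 5.59e-13). Map1b, a lattice-binding protein, fell from 34.9 ± 1.23 to 18.5 ± 0.458 CPM (log2 fold change -0.92, edgeR adjusted p = 5.93e-09, n = 2). Among severing enzymes, Fignl1 (log2 fold change -0.34) and spastin, Spast (-0.24), fell. Cenpe, the kinetochore kinesin, did not pass.

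Among 28 enzymes that modify tubulin, 14 rose (50%) and 5 fell (17.9%), against 22.0% and 21.7% of all genes tested, and the median log2 fold change was 0.26. Most act on the residues that the tail codons above encode or on the lysine that is acetylated inside the microtubule. Ttll2, of the tyrosine ligase-like family, rose from 4.48 ± 0.577 to 12.9 ± 2.72 CPM (SD, n = 2, log2 fold change 1.52, edgeR adjusted p = 1.7e-08). Ttll7, a glutamate-adding enzyme that prefers beta-tubulin, rose from 28.6 ± 2.68 to 58.9 ± 3.96 CPM (log2 fold change 1.04, edgeR adjusted p = 5.43e-11, n = 2). Sirt2, a deacetylase, rose from 181 ± 4.43 to 333 ± 11.3 CPM (log2 fold change 0.88, edgeR adjusted p = 1.89e-16, n = 2).

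The fallers of this group were abundant genes. Agbl2, a carboxypeptidase that removes tail residues, fell from 285 ± 7.01 to 223 ± 2.19 CPM (SD, n = 2, log2 fold change -0.35, edgeR adjusted p = 8.67e-09). Ttll5, a glutamate-adding enzyme needed for sperm function, fell from 506 ± 3.15 to 423 ± 12.7 CPM (log2 fold change -0.26, edgeR adjusted p = 7.67e-07, n = 2). Ttll6 fell by 0.27 on the log2 scale (edgeR adjusted p = 2.57e-05), but not with limma (adjusted p up to 0.0529).

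**Figure D5:**
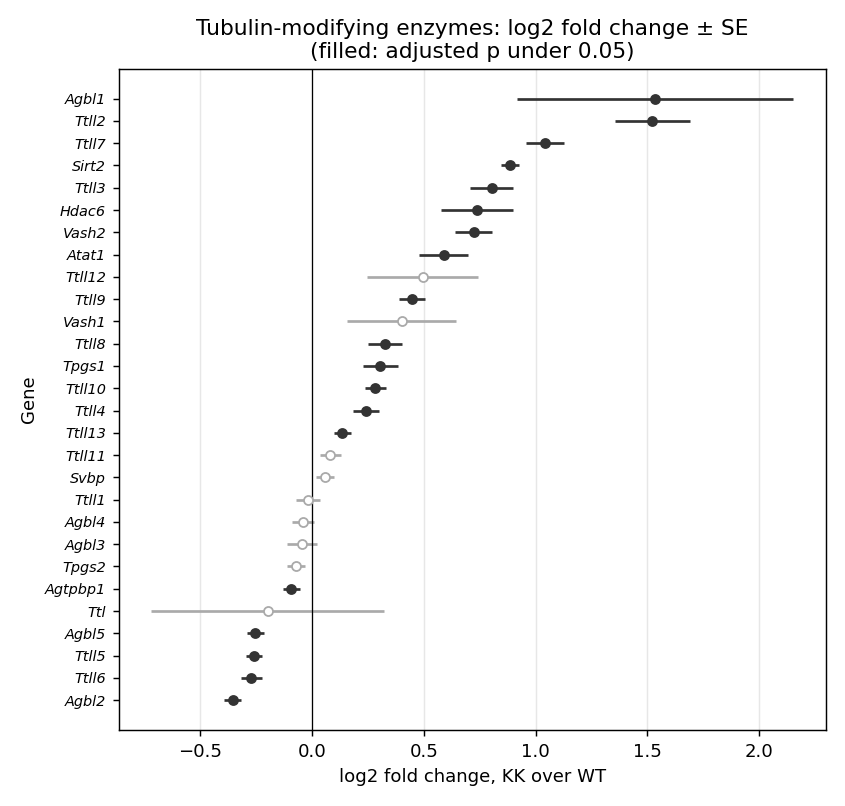
Log2 fold change of the 28 tubulin-modifying enzymes in KK over WT with its standard error (edgeR, n = 2 libraries per genotype), with filled points for an adjusted p under 0.05. Ttll2, Ttll7 and Sirt2 lie to the right of 0, and Agbl2, Ttll6 and Ttll5 to the left.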

How the data were processed

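RNA of 4 libraries of elutriated pachytene spermatocytes was sequenced, from a kit that does not mark strand, so reads of overlapping genes on opposite strands cannot be told apart. Bowtie and the builds GRCm38 and mm10 are named in the submitters' processing notes. The quantifier is not given in the sources used here. Gene tables hold expected counts and TPM as deposited by the authors, per the file headers, and isoform tables also the percent of a gene's transcripts that each isoform makes up. The effective lengths deposited by the authors, in bases, were used only for an offset. Gene names, exons and coding ends came from GENCODE M21 on GRCm38, in which 55104 of 55364 identifiers were found, and promoters from a RefSeq table of GRCm38.p6. A comparison of proteins was replaced by one of coding sequences.

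Expected counts were rounded to whole numbers and tested with edgeR 4.0.16 in R 4.3.3 (TMM factors, default expression filter, quasi-likelihood fit on genotype, Benjamini-Hochberg adjustment at 0.05), after the fit was tested on simulated data. Standard errors were taken as |log2 fold change| over the root of the F statistic, and CPM values are on the TMM scale. Ratios of pooled counts carry exact 95% intervals for counting error only. Members and lists were chosen with earlier results of these data known. Values in every library are given for every tubulin, the 8 kinesins with the largest rise and fall past the test, the 6 most abundant kinesins and X-linked members, and, of each microtubule list, at most 3 risers and 3 fallers with a mean of at least 1 CPM, not all of which are named. Some results are not reported here. The alternatives were other scaling factors and filters, an effective length offset, a replicate block, each library left out, DESeq2 1.42.0, and limma 3.58.1 on log2(TPM + 1) and log2(TPM + 0.1).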

Additional observations from a re-analysis of the deposited data

How the results depend on the processing

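Of the 26 kinesin and tubulin genes that passed, 12 kept their call in every one of the 14 alternatives: Kif19a, Kif1a, Kif1bp, Kif26b, Kif2a, Kif2b, Kif3b, Kif5c, Tuba1c, Tuba4a, Tuba8 and Tubb6. The call was lost in 7 alternatives for Kifc3 and for Kif26a, whose choice fixed its direction, 6 for Kif15, Kif21a and Kif4, and 5 for Tubb3. It was lost in 4 for Kif6, 3 for Tubb2a and Tubb5, 2 for Kif13b, Kif1b and Tuba3a, and 1 for Tuba3b. Kif27 lost its call in 2 alternatives with its direction kept, and in 3 more it turned in direction and did not pass. Of the microtubule genes named, Cdk5rap2, Tubgcp5, Dync1li2, Tbcel, Kifap3 and Ttll6 also lost theirs with limma on both TPM scales. Of the 29 kinesin and tubulin genes that did not pass, 10 passed in some alternative. With scaling by library size alone the members lower in KK fell to 5 and those higher were 23. With an effective length offset the lower genes of the microtubule list numbered 20 in place of 33, and all calls 4662 in place of 7237. With limma on log2(TPM + 1) 9 members were higher and 5 lower, 7 kinesins and 15 lower microtubule genes passed, and all calls were 3826. With limma on log2(TPM + 0.1) those counts were 9, 5, 7, 15 and 3758. Kif27 turned in direction with the effective length offset (-0.0316) and with limma on log2(TPM + 1) and log2(TPM + 0.1) (-0.0154 and -0.0156), and the cause was not tested. DESeq2 gave 12 higher and 7 lower members and 4969 calls in all.

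Leaving out each library in turn gave 12 to 18 higher and 8 to 10 lower members, 11 to 16 kinesins, 8 to 10 tubulins, 27 to 28 higher and 27 to 31 lower microtubule genes, and 5925 to 6552 calls in all. With the replicate number as a block, 19 members were higher and 10 lower, 19 kinesins passed and all calls were 7309. Tuba3a did not pass there (adjusted p = 0.056, edgeR). Whether same-numbered libraries share more than a number is not stated. Their deviations from the genotype means did not move together (correlation -0.06). With 2 libraries per genotype this cannot decide whether they are paired. For genes with few counts, such as Kif26a with 17 counts in WT, depth limits the size of the change that can be measured.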
